A study of Mus musculus with 2 samples.

Results

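The 32 genes described here encode proteins that copy DNA and divide the cell, and all 32 were rows of both count tables, which hold 29809 genes. They were chosen by name: 11 act in DNA replication and 21 in mitosis, and a gene was counted as detected in a cell with at least 1 UMI (unique molecular identifier, which tags 1 captured transcript). Single cells from microdissected arcuate nucleus with the adjoining median eminence, at the floor of the third ventricle in the hypothalamus, were read by Drop-seq, which captures cells on barcoded beads and reads transcripts from their 3' ends. The mice were of the CD-1 strain and 7 to 8 weeks old. One library pooled 7 wild type mice and the other pooled 5 mice labelled Irx3/5+/-, here called the double heterozygote, in which 1 copy each of the transcription factor genes Irx3 and Irx5 is lost. The title of the series names postnatal neurogenesis in the hypothalamus, and the question taken here is which cells of this tissue express division genes in each library.

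A cell that prepares to divide first loads the Mcm helicase on its DNA, then copies the DNA behind the sliding clamp Pcna with nucleotides made by Tyms and ribonucleotide reductase. Cyclins with the kinase Cdk1 then carry it into mitosis, in which chromosomes are condensed, attached to the spindle, checked and pulled apart, and most mitosis transcripts are present only late in the cycle. In the adult hypothalamus, oligodendrocyte precursors are the most widespread dividing cells, microglia renew themselves by division, and tanycytes, the radial glia of the ventricle floor, are studied as a stem cell population.

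The promoters of these genes are known for short elements that time their transcription: the cell cycle homology region (TTTGAA) and the NF-Y box (CCAAT) in mitosis genes and E2F sites (TTCCCGC or TTGGCGC) in replication genes. RefSeq promoter windows of GRCm38.p6 were found for 28 of the 32 genes. Mcm4, Ccna2, Aurkb and Tpx2 were not matched. In the 250 bases before the start, read on both strands, TTTGAA stood in 7 of 18 mitosis and 1 of 10 replication genes, against 16.0% of 32851 promoter windows. CCAAT stood in 16 of 18 and 8 of 10, against 33.8%. The E2F letters stood in 3 of 18 and 4 of 10, against 5.62%, and ATTGG, the reverse of CCAAT, can overlap TTGGCGC. A match describes the letters only. The promoters of 3 genes are shown because Top2a and Cenpf held the most UMIs of the mitosis genes, and Rrm1 the most after Pcna of the replication genes, in the cells with at least 2 division genes. The Pcna window overlaps an annotated transcript of the gene and is not shown. Each run reads 5′ to 3′ towards the start of its gene, with the searched motifs in capitals on either strand.
Top2a, chr11:99024190-99024439, minus strand, with 2 TTTGAA and 6 CCAAT: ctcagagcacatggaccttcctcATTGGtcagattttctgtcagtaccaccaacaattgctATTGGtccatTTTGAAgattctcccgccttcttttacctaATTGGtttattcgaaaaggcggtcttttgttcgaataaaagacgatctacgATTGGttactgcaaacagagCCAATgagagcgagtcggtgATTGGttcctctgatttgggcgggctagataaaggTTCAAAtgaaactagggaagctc
Cenpf, chr1:189688087-189688336, minus strand, with 2 CCAAT: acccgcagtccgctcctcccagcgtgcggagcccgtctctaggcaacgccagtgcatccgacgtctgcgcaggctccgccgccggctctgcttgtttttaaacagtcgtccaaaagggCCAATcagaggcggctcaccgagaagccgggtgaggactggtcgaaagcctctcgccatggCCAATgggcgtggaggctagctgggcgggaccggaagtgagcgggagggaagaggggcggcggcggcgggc
Rrm1, chr7:102441445-102441694, plus strand, with 2 CCAAT and 1 E2F site: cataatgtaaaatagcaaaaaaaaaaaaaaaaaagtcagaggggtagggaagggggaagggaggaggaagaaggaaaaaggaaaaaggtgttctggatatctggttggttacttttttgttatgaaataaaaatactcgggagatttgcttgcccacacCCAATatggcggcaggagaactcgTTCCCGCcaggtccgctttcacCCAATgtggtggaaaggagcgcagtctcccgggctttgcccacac

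After removal of barcodes with fewer than 300 genes or over 20% mitochondrial UMIs, 2405 wild type and 1484 double heterozygote cells remained. They held 4282490 and 2862026 UMIs, with medians of 1274 and 1160.5 UMIs per cell. Irx3 was counted with 31 and 15 UMIs and Irx5 with 16 and 6, too few to check the genotype labels. Of 12-base barcodes, 258 wild type (10.7%) and 183 double heterozygote ones (12.3%) shared their first 11 bases with another barcode of their library. These formed 72 and 52 families, of which 53 and 34 had 4 barcodes, and 71 and 51 lay wholly in 1 cell class. Counts are given by barcode, and again with each family merged into 1 cell and 4 barcodes of G runs left out, which leaves 2232 and 1372 cells. The libraries shared 3 barcode sequences, of which 1, a run of G, was used in both. Oligodendrocyte precursor-like cells, called precursors below, were 253 of 2405 wild type cells (10.5%, 95% interval 9.32 to 11.8) and 78 of 1484 double heterozygote cells (5.26%, 4.18 to 6.52). Neuron-like cells were 34.4% and 47.6%. Each genotype is 1 library, so no difference between them has a replicate check or a test, and every interval is 95% and covers counting error only.

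About 1 in 20 cells of either library held transcripts of at least 2 division genes, and the strongly marked cells among them were rarer. At least 2 were detected in 109 wild type cells (4.53%, Clopper-Pearson interval 3.74 to 5.44) and in 62 double heterozygote cells (4.18%, 3.22 to 5.32). With barcode families merged, the counts were 108 (4.84%) and 67 (4.88%). A single division gene was detected in 452 and 265 cells, exactly 2 in 77 and 42, and at least 5 in 16 (0.665%, 0.381 to 1.08) and 9 (0.606%, 0.278 to 1.15). The intervals of the libraries overlapped at each of these cutoffs. The choice of cutoff changed which cells were counted. Of the 119 cells with exactly 2, 81 held replication genes only and 63 held Pcna, and their median depth was 3044 UMIs. Of the 25 cells with at least 5, none held replication genes only, and their median depth was 1652 UMIs. The pair of transcripts that brings most cells to a count of 2 was thus read in deep cells. The cells with at least 5 were shallower than these, though still above the median of 1232 UMIs over all used cells.

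Cells with at least 2 division genes were spread over all marker-defined classes, but those with at least 5 lay in 3 of them. Of the 171 cells with at least 2, 46 were neuron-like, 38 precursors, 20 ependymal-like, 17 microglia-like, 15 tanycyte-like, 13 fibroblast-like and 10 oligodendrocyte-like. Another 3 were pars tuberalis-like, 4 vessel-like (3 mural-like and 1 endothelial-like) and 5 lay in an unnamed cluster led by Cyp2f2 and Krt18. The share of the class was 11.5% (8.25 to 15.4) in precursors, 10.97% (6.52 to 16.98) in microglia, 3.05% (1.72 to 4.99) in tanycytes and 2.999% (2.20 to 3.98) in neurons. At a cutoff of 3 division genes, the 52 cells were 24 precursors, 10 microglia, 9 neurons, 3 ependymal-like, 2 tanycyte-like and 2 pars tuberalis-like cells. The rest were 1 fibroblast-like cell and 1 of the unnamed cluster. The cutoff of 5 was chosen after the data were seen. Precursors held 12 wild type and 5 double heterozygote barcodes with at least 5 division genes, microglia 4 and 3, and pars tuberalis-like cells 0 and 1. No cell of another class reached 5. Taking 3 counts as the limit that a count of 0 allows, 0 of 491 tanycytes allows a share of up to 0.611%, 0 of 185 vessel-like cells up to 1.62% and 0 of 1534 neurons up to 0.196%. The same 3 classes held all 25 cells when clusters were made at resolution 0.5 or 2, or when each cell was named by its own markers. With cell cycle genes kept in the clustering, the pars tuberalis-like cell moved to the precursors, which then held 18.

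At equal depth, precursors had the highest share of cells with at least 2 division genes. Neurons had the lowest, which rested on 3 cells. Each cell was thinned to 1000 UMIs, which left out 155 precursors and 1578 cells in all as too shallow. The share was then 19 of 176 precursors (10.8%, 6.63 to 16.3), 3 of 48 microglia (6.25%, 1.31 to 17.2), 3 of 286 tanycytes (1.05%, 0.217 to 3.03) and 3 of 997 neurons (0.301%, 0.0621 to 0.877). It was 7 of 200 ependymal-like cells (3.50%), 5 of 141 fibroblasts (3.55%), 2 of 69 vessel-like cells (2.90%), 2 of 245 oligodendrocytes (0.816%) and 1 of 100 pars tuberalis-like cells (1%). Counted over mitosis genes alone, 12 of 176 precursors (6.82%) had at least 2, against 0 of 286 tanycytes and 1 of 997 neurons. Neurons, which no longer divide, give a share to set beside the others, at a median depth of 1641.5 UMIs against 1043 in precursors. How much of it is free RNA and how much is the neurons' own transcripts was not tested. The intervals of precursors and microglia overlapped, and the microglia and tanycyte intervals also overlapped. That of neurons overlapped several others, including tanycytes, oligodendrocytes (0.0990 to 2.92) and pars tuberalis-like cells (0.0253 to 5.45). In another random draw of 1000 UMIs per cell the shares were 14.2% of precursors, 12.5% of microglia, 0.699% of tanycytes and 0.602% of neurons. One neuron-like cluster of 38 cells, led by Tac2 and Kiss1, had a neuroblast marker (Nhlh2) among its top 10 genes. It passed for 10 of the 12 neuron markers, and most neuron-like clusters had no neuron marker in their top 10. Without this cluster the neuron share in the first draw was 0.310%.

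**Figure D1:**
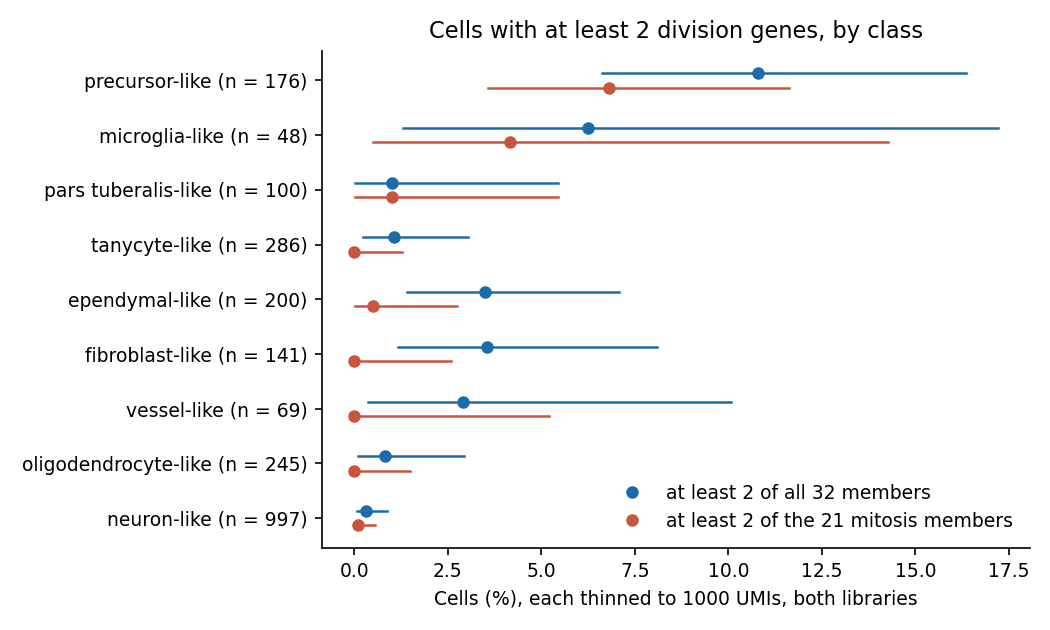
Share of cells (%) with at least 2 of the 32 division genes (blue) or at least 2 of the 21 mitosis genes (red), after each cell was thinned to 1000 UMIs, by class over both libraries. Lines are 95% Clopper-Pearson intervals. Precursors stand highest at 10.8% and 6.82%, and tanycytes show 1.05% and 0.

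Most precursors with division genes lay in the larger of 2 precursor clusters, led by genes of uncommitted precursors. That cluster held 296 of the 331 precursors, so most would lie there at equal rates too. The other was a small cluster of cells set on becoming oligodendrocytes. Of 296 precursors in the cluster led by Fabp7, C1ql1, Olig2 and Pdgfra, 36 had at least 2 division genes and 17 had at least 5. Of 35 cells in the cluster led by Enpp6, Gpr17 and Bmp4, genes of committed precursors, 2 had at least 2 and none had 5, and these 35 held 1 mitosis UMI. The mitosis genes summed to 774 CPM (UMIs scaled to a total of 1000000 for the cells counted) in the first cluster and 13.01 in the second. Replication genes summed to 553 and 182 CPM. The gap between the clusters was therefore much wider for mitosis than for replication genes, but 35 cells are too few to set a rate for the second cluster.

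Precursors with at least 5 division genes ranged from replication-rich to mitosis-rich profiles. With families merged there were 13 such cells in wild type, with 5 to 22 division genes (median 6), and 5 in the double heterozygote, with 5 to 14 (median 8). The wild type cell with most had 16 mitosis and 6 replication genes among 2995 UMIs. Another, of 2846 UMIs, held 17 mitosis genes with 68 UMIs, among them 10 each of Top2a and Ube2c and 7 of Cenpf, but Rrm1 was its only replication gene. A cell of 3579 UMIs held 8 replication and 7 mitosis genes, with 22 and 13 UMIs, 9 of them Pcna, and no Top2a or Mki67. Another 2, of 1652 and 5052 UMIs, held 5 replication genes and 1 mitosis gene each. In the double heterozygote the smallest, of 635 UMIs, held 9 mitosis genes, with 5 UMIs of Top2a. Over the 24 merged cells of all classes with at least 5, 16 held more mitosis than replication genes, 7 the reverse, and 4 held mitosis genes only.

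Microglia gave 2 wild type and 3 double heterozygote cells with at least 5 division genes once barcode families were merged. In wild type, 4 barcodes, identical but for their last base and with 820, 907, 1024 and 662 UMIs, formed 1 family. These held 7, 6, 4 and 9 division genes singly and 17 together, with 32 division gene UMIs among 3413, including 4 each of Mki67 and Birc5. The other wild type cell had 5, with 3 UMIs of Mki67 and 4 of Top2a among 663. The double heterozygote cells had 8, 8 and 7, and the second of them held mitosis genes only, with 3 UMIs each of Ccna2 and Ccnb1. Merging thus changed the share of microglia with at least 5 from 3.70% to 1.90% in wild type, and it was 6.38% and 6.82% in the double heterozygote.

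One double heterozygote cell held more division gene UMIs than any other cell. It lay in the pars tuberalis-like cluster, hormone cells of the pituitary stalk, with 8786 UMIs, 25 of the 32 division genes and 143 of their UMIs. That is 120 of the 267 mitosis UMIs of the library, with 23 of 30 for Mki67, 19 of 34 for Top2a, 14 of 26 for Cenpf and 14 of 24 for Nusap1. Of 8 pars tuberalis markers it held 6: 314 UMIs of Cga, the shared subunit of glycoprotein hormones, 109 of Tshb, 34 of Epcam, 3 of Krt18 and 1 each of Pitx1 and Mtnr1a. Lhx3 was at 0, and was found in 14 of the other 131 cells of the class. Pitx1 stood at 114 CPM in it against 831 in the others, and Epcam at 3870 against 566. It held 3 of 12 neuron markers. The doublet caller marked none of the 25 cells with at least 5 division genes, but it marked only 17 cells in all (0.437%) and so did not work here. Whether this barcode holds more than 1 cell was not tested.

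Most tanycyte-like and neuron-like cells with at least 2 division genes held replication genes only. All 15 such tanycytes had at most 1 mitosis gene and 11 had none; none had more than 3 division genes, and Mcm6 (6 cells), Pcna (5) and Rrm1 (5) were found most often. The mitosis genes summed to 24.5 CPM in tanycytes (14.5 to 38.7), close to 20.1 in neurons (15.8 to 25.1), while the replication genes summed to 166 and 96.1. In neurons, 29 of the 46 cells held replication genes only, 15 held 1 mitosis gene and 2 at least 2, and the median depth of the 46 was 7410 UMIs. Mki67 and Top2a had 0 UMIs in 491 tanycytes, and only 2 and 3 UMIs in neurons (0.521 and 0.781 CPM). At such low counts the 0s do not place tanycytes below neurons. The border between tanycyte-like and ependymal-like cells moved with the clustering. At resolution 0.5, 19 cells with at least 2 division genes were tanycyte-like and 16 ependymal-like, in place of 15 and 20. With barcode families merged, the classes held 550 and 184 cells, and mitosis genes summed to 23.7 CPM in tanycytes.

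**Figure D2:**
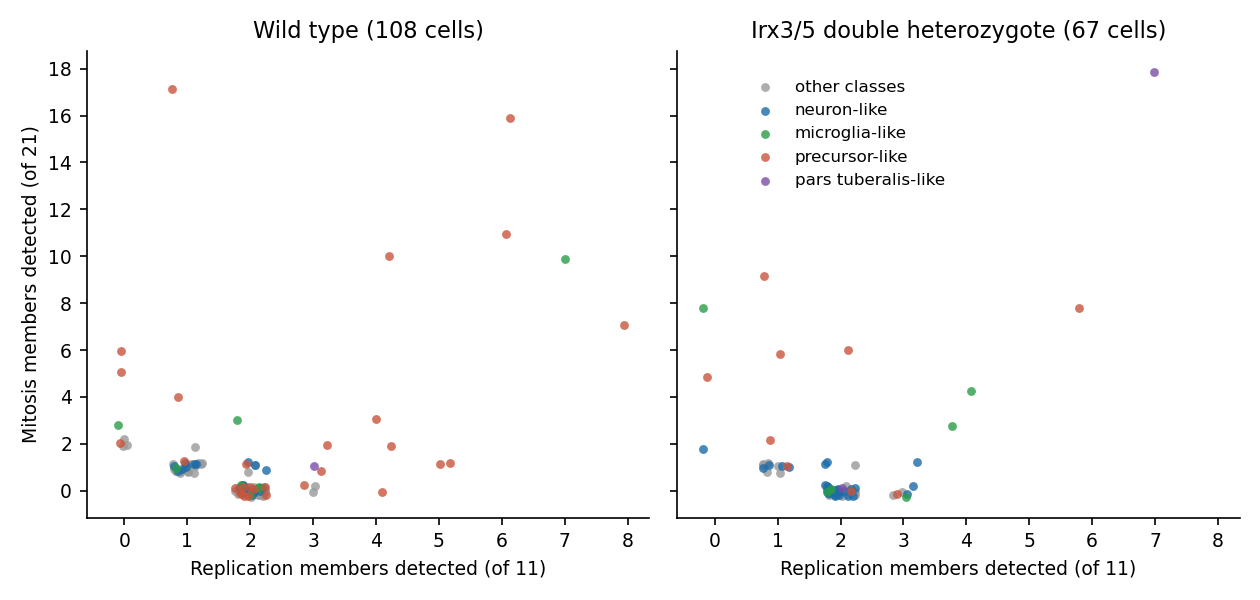
Number of replication genes (of 11, horizontal axis) and mitosis genes (of 21, vertical axis) detected in each cell with at least 2 division genes, barcode families merged, with points jittered. The 108 wild type cells are on the left and the 67 double heterozygote cells on the right, coloured by class. Cells above 2 mitosis genes are precursors, microglia or the pars tuberalis-like cell with 18.

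Ependymal-like cells, which bear the motile cilia of the ventricle wall, held mitosis transcripts mainly of 3 genes. Of their 41 mitosis UMIs, 28 (68.3%, 51.9 to 81.9) were of Cenpf (13 UMIs in 10 cells), Tpx2 (8 in 6) and Kif11 (7 in 7), against 57 of 278 (20.5%, 15.9 to 25.7) in precursors, 24 of 77 (31.2%, 21.1 to 42.7) in neurons and 7 of 18 (38.9%, 17.3 to 64.3) in tanycytes. Mki67, Cdk1, Ccnb1, Ccnb2 and Birc5 had 0 UMIs in these 314 cells and Ccna2 had 1. Of these 6 genes precursors held 66 UMIs, neurons 27 and tanycytes 2, of Ccnb2 and Birc5. Among the remaining mitosis genes, Top2a had 5 UMIs in 2 ependymal-like cells and Plk1 had 2 UMIs. Bub1, Cdc20, Ube2c, Nusap1 and Cenpa had 1 each. The cluster led by Ccdc153, Tmem212 and Sntn held 24 of the 28, and both libraries contributed, with 20 and 8. The 3 genes and the 6 near 0 were singled out after their values were seen.

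Division gene UMIs as a whole were close in the libraries, with a total that depended on 1 cell and on the share of neurons. They summed to 1112 UMIs in wild type, or 260 CPM (245 to 275), and to 670 in the double heterozygote, or 234 CPM (217 to 253), a ratio of 0.902 (0.818 to 0.993) of double heterozygote over wild type. Mitosis genes gave 88.3 and 93.3 CPM, a ratio of 1.06 (0.9002 to 1.24), and replication genes 171 and 141, a ratio of 0.821 (0.726 to 0.929). Without the cell with most division gene UMIs in each library, the ratio was 0.758 (0.681 to 0.842) for all and 0.711 (0.581 to 0.868) for mitosis genes. With neurons left out it was 1.31 (1.17 to 1.47) for all, and 0.992 (0.869 to 1.13) without those 2 cells. The direction of the total therefore turned with the cells counted. Within precursors the mitosis genes stood at 592 CPM (515 to 677) in wild type and 870 (671 to 1109) in the double heterozygote, a ratio of 1.47 (1.10 to 1.95), and replication genes at 509 and 388, a ratio of 0.763 (0.497 to 1.13). Without the precursor with most division gene UMIs in each library these ratios were 1.69 (1.197 to 2.34) and 0.591 (0.361 to 0.923). In microglia the ratio for all division genes was 1.72 (1.18 to 2.49), and 1.54 (1.01 to 2.34) without the top barcode of each library. With barcode families merged it was 1.65 (1.13 to 2.39), and 2.30 (1.44 to 3.69) without the top cell of each library. Among the 78 double heterozygote precursors, the 5 cells with at least 5 division genes held 15, 17, 9, 13 and 8 of the 65 mitosis UMIs. The intervals take UMIs as independent counts, so they are too narrow where a few cells hold most of them. The share of precursors with at least 2 division genes was 11.5% in both libraries, 29 of 253 and 9 of 78 cells.

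Over all used cells, single division genes differed 2-fold between the libraries about as often as all genes did. Of the 29 with at least 10 UMIs, 2 were at least 2-fold higher in the double heterozygote, where 4.14% of 18971 genes were, and 4 at least 2-fold lower, where 13.5% were. Their median ratio was 0.960, against 0.935 over all genes tested. Without the cell with most division gene UMIs of each library, 0 of 27 were higher (4.08% of all genes) and 7 lower (13.7%). Among cells other than neurons 7 of 27 were higher, against 5.57% of genes, and 2 lower, against 12.8%. There, without those 2 cells, 3 of 25 were higher (5.41%) and 5 lower (13.1%). Leaving out those 2 cells thus took the counts of higher genes from 2 to 0 and from 7 to 3.

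Among the replication fork genes, Pcna was detected in 209 wild type and 129 double heterozygote cells, with 262 and 150 UMIs (61.2 and 52.4 CPM). The 6 Mcm subunits of the helicase differed among themselves. Mcm3 had 27 and 7 UMIs, a ratio of 0.388 (0.143 to 0.913), and Mcm5 17 and 2, a ratio of 0.176 (0.0197 to 0.742). Mcm7 had 97 and 44 (0.679, 0.464 to 0.979), while Mcm6 had 88 and 52, Mcm4 53 and 34, and Mcm2 16 and 14, with intervals that included 1. Mcm3 and Mcm5 were also the Mcm genes with the largest part of their UMIs in precursors, 61.8% and 52.6%, against 13.6% for Mcm6. Precursors were a smaller share of the double heterozygote library, and the part this has in the lower counts was not tested. Summed over the 7 fork genes, the ratio was 0.810 (0.702 to 0.933).

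Of the genes for nucleotide supply, Tyms, thymidylate synthase, had 50 UMIs in 37 wild type cells and 12 in 12 double heterozygote cells, a ratio of 0.359 (0.174 to 0.684). Rrm1, the large subunit of ribonucleotide reductase, had 91 and 54 UMIs in 75 and 43 cells. Its partner Rrm2, which is made mainly in S phase, had 14 and 13 UMIs in 11 and 5 cells, and 8 of the 13 came from the pars tuberalis-like cell. Rrm1 was read in neurons (47 UMIs in 44 cells), whereas Rrm2 had 0 UMIs there.

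Cyclins and Cdk1 were rare in either library. Ccne1, cyclin E1, which drives entry into S phase, had 19 and 21 UMIs, and 32 of the 40 lay in neurons, at 8.33 CPM against 9.20 in precursors. Ccna2, the cyclin of S phase and G2, had 13 and 10 UMIs. The mitotic cyclins Ccnb1 and Ccnb2 had 13 and 7 and 16 and 15 UMIs, and their kinase Cdk1 had 20 and 10 in 9 and 8 cells, with 83.3% of them in cells with at least 5 division genes. The 5 genes together had a ratio of 1.16 (0.824 to 1.64).

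Mki67, the Ki-67 antigen on mitotic chromosomes, was the only division gene whose interval lay above 1. It had 18 UMIs in 12 wild type cells and 30 in 7 double heterozygote cells, a ratio of 2.49 (1.35 to 4.75). Without the cell with most division gene UMIs of each library the ratio was 0.656 (0.228 to 1.69). Top2a, the topoisomerase that untangles sister chromatids, had 50 and 34 UMIs in 20 and 9 cells, and a ratio of 1.02 with and 0.562 without those cells.

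Of the 60 double heterozygote UMIs of centromere and passenger genes, 33 remained without the pars tuberalis-like cell. Cenpf, a kinetochore protein, had 46 and 26 UMIs, and a ratio of 0.846 that was 0.462 (0.220 to 0.8997) without the 2 cells. Birc5, survivin, had 25 and 9 UMIs (0.539, and 0.300 without), and Cenpa, the centromeric histone, 16 and 17. Cenpe, a kinetochore motor, had 13 and 8. Aurkb, the kinase of the passenger complex, had 7 UMIs in 4 wild type cells, all precursors with at least 5 division genes, and 0 in the double heterozygote. The levels were 1.63 CPM and 0, which allows up to 1.05 CPM, and the interval of the ratio, 0 to 1.04, included 1. The spindle checkpoint genes Bub1 and Bub1b had 6 and 0 and 3 and 4 UMIs.

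Spindle and anaphase genes showed no shared direction. Tpx2, which starts spindle growth at chromosomes, had 26 and 23 UMIs, Nusap1 34 and 24, Hmmr 11 and 9 and the spindle motor Kif11 15 and 12. The kinases Aurka and Plk1 had 7 and 3 and 4 and 6, and Plk1 (ratio 2.24, 0.532 to 10.8) was the other gene past 2-fold. Cdc20, which activates the anaphase-promoting complex, had 18 and 6 UMIs (0.499, 0.162 to 1.31), and Ube2c, its ubiquitin-conjugating enzyme, 17 and 14. Of the 17 wild type UMIs of Ube2c, 10 came from 1 precursor. The intervals of all these ratios included 1.

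**Figure D3:**
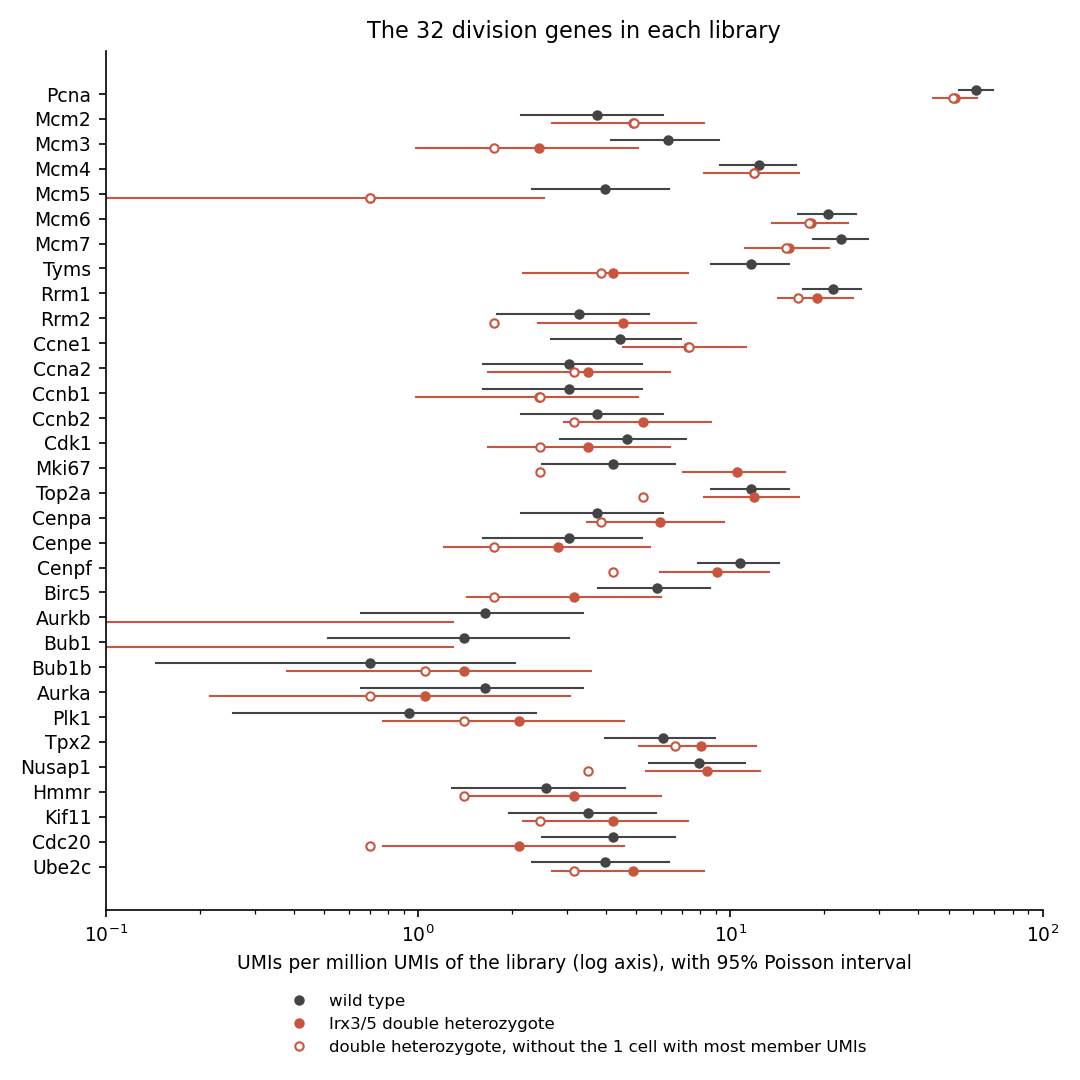
CPM (UMIs scaled to a library total of 1000000) of each of the 32 division genes in the wild type (grey) and double heterozygote (red) library on a log axis, with 95% Poisson intervals. Open circles leave out the 1 double heterozygote cell with most division gene UMIs. Mki67 stands at 4.203 and 10.5 CPM, and its open circle lies below wild type. Aurkb and Bub1 have no double heterozygote point because they were at 0.

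Mitosis and replication genes differed in how far their transcripts were concentrated in a few cells. Of 645 mitosis UMIs, 66.2% lay in the 25 cells with at least 5 division genes and 43.1% in precursors of any kind, but only 12.8% of 1137 replication UMIs lay in those 25 cells. Neurons held 11.9% of mitosis and 32.5% of replication UMIs. The 25 cells were chosen by these same genes, so the shares describe how the counts are spread.

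On the CPM scale, precursors exceeded neurons for nearly every division gene. Of 26 with at least 10 UMIs in these 2 classes, 25 were at least 2-fold higher in precursors, where 19.3% of 16048 genes were, and Ccne1 was the exception at 1.10-fold. The median was 31.7-fold for 16 mitosis genes and 4.59-fold for 10 replication genes, against 0.982 over all genes tested, and the 2 mitosis genes with 0 neuron UMIs lie above that median at their bounds. Cdk1 stood at 43.7 CPM in precursors and 0.2604 in neurons, and Top2a at 98.9 and 0.781. Ube2c and Cenpe had 0 neuron UMIs, which makes them at least 61.9-fold and 41.2-fold higher against a floor of 3 UMIs in neurons. Pcna was 152 in precursors against 37.2 in neurons, a 4.08-fold difference, and Mcm6 43.7 against 11.2. Mcm3 was closer to the mitosis genes, with 48.3 against 0.2604.

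**Figure D4:**
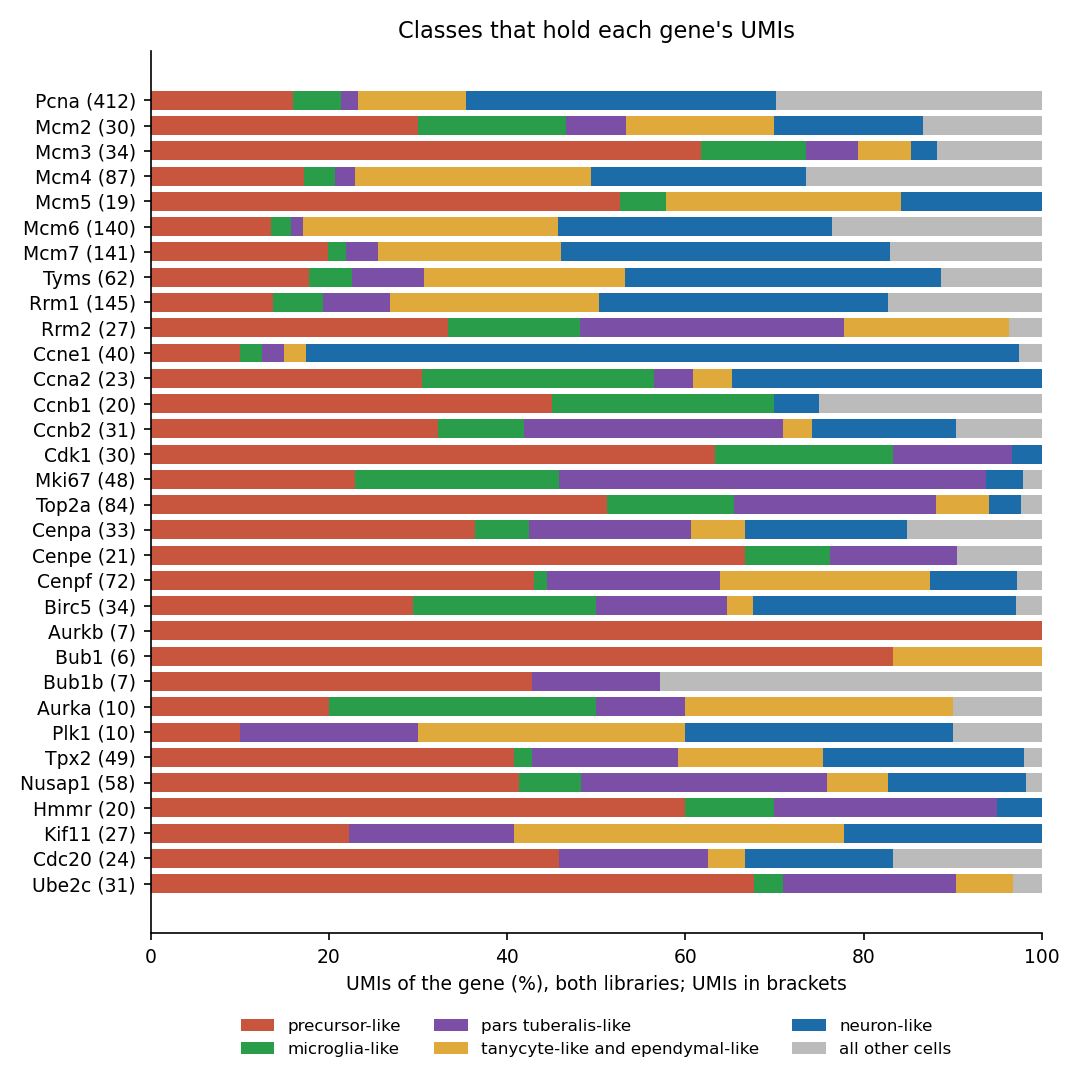
Share of each division gene's UMIs (%) by class, both libraries, with the gene's UMIs in brackets. Precursors (red) hold 67.7% of Ube2c and 51.2% of Top2a UMIs, and neurons (blue) hold 34.7% of Pcna and 80% of Ccne1 UMIs. The pars tuberalis-like part (purple) of Mki67 comes from 1 cell.

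Other cell cycle genes, which did not enter the choice of cells or classes, were detected in number mainly in cells with at least 5 division genes. In precursors, 0.291 of 44 other mitosis genes were detected per cell with 0 division genes (237 cells), 0.571 with 2 (14 cells), 1.71 with 3 or 4 (7 cells) and 11.3 with at least 5 (17 cells, lowest 4 and highest 28). The 29 other replication genes went from 0.426 to 1.29, 2.29 and 5.76. Median depth went from 957 to 1588, 1846 and 1739 UMIs. Precursors with exactly 2 division genes were thus near those with 0 in their other mitosis genes, and those with at least 5 were well above them at a depth like that of the cells with 3 or 4.

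Of the other mitosis genes, the condensin subunits Smc2 and Smc4 and the chromatin protein Hmgb2 were each found in 15 of the 25 cells with at least 5 division genes. In all, these were found in 154, 177 and 152 cells. Pbk, a mitotic kinase, was found in 13 of the 25 and in 14 cells in all. Ccdc34 was found in 8 of the 25 but in 682 cells in all, with 340 CPM in tanycytes against 85.1 in precursors, so it did not mark these cells. Of replication genes, the histone chaperone Nasp and the DNA ligase Lig1 were each in 9 of the 25, Slbp in 7, and Dut and Rfc2 in 6. In that order they were found in 367, 244, 280, 298 and 343 cells in all, so none was confined to the 25. Slbp stood at 54.2 CPM in neurons and 34.5 in precursors. Between the libraries, 4 of 36 other mitosis genes with at least 10 UMIs were 2-fold higher in the double heterozygote and 3 lower, and of 25 other replication genes 0 and 2, where 4.14% of all genes were higher and 13.5% lower. Their medians were 0.972 and 0.873. Without the cell with most division gene UMIs of each library, 7 of 32 other mitosis genes lay lower and 0 higher (median ratio 0.711), as did 4 and 0 of 25 other replication genes (0.845), beside 13.7% and 4.08% of all genes.

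G1 cyclins, which act before S phase, set precursors and tanycytes apart. Ccnd1, cyclin D1, stood at 591 CPM in precursors (521 to 668), 45.3 in neurons and 34.0 in tanycytes, and was found in 16 of the 25 cells with at least 5 division genes. Ccnd2, cyclin D2, stood at 379 in tanycytes (336 to 426) and 122 in precursors, and was found in 3 of the 25. The kinase Cdk4 stood at 340 in precursors and 129 in tanycytes, and Ccnd3 at 82.8 and 91.0. Ccne2 and E2f3 were each found in 4 of the 25 cells. Of the Cdk inhibitors, which hold cells out of the cycle, Cdkn1b stood at 124 in precursors and 213 in tanycytes, Cdkn1c at 78.2 and 105, and Cdkn2d at 80.5 and 38.0. Cdkn1a stood at 192 in microglia and 18.4 in precursors. Cdkn2c was found in 34 cells in all and in 7 of the 25. Between the libraries, 0 of 13 G1 genes were 2-fold higher in the double heterozygote and 1 lower, and of 6 inhibitors 0 and 1, against the same 4.14% and 13.5% of all genes. Ccnd1 had 421 and 222 UMIs, a ratio of 0.789 (0.668 to 0.9305), and Ccnd2 707 and 295, a ratio of 0.624 (0.543 to 0.716). Precursors and tanycytes were smaller shares of the double heterozygote library (tanycytes 14.7% and 9.30%), and their part in these ratios was not tested.

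**Figure D5:**
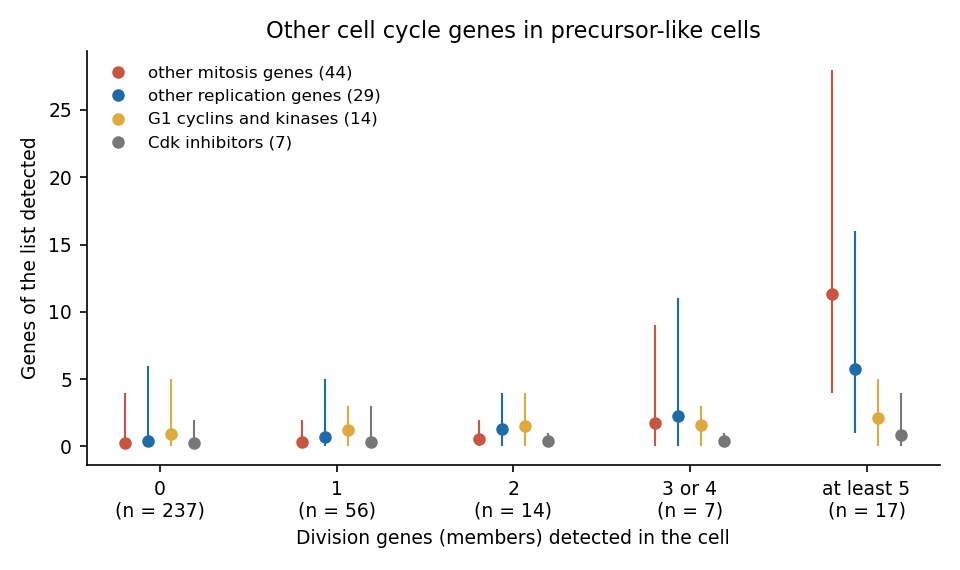
Number of genes detected per precursor for 4 lists of other cell cycle genes (list size in brackets), by the number of division genes in the cell. Points are means over cells and lines run from the lowest to the highest cell. Other mitosis genes (red) lie at 0.291 in cells with 0 division genes and 11.3 in cells with at least 5.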

How the data were processed

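Drop-seq was done on 2 pooled libraries of sorted live cells, 1 per genotype. The deposited tables hold whole-number UMI counts per gene and barcode, made by the authors. Per the submitters' processing notes, bcl2fastq, Picard, the aligner STAR (2.6.0b), Seurat (3) and mouse build mm10 were used. Annotation and multimapped reads: not given in the sources used here. The deposited merged table gives values as the natural log of 1 plus scaled counts, and only its 4297 barcodes were used, as an alternative set of cells.

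The division genes, marker lists, other cell cycle lists and cutoffs were chosen with earlier results of these data known. Used cells (300 genes or more, 20% mitochondrial UMIs or less) were clustered together (scanpy 1.11.5, leidenalg 0.10.2, resolution 1, 20 neighbours, 30 components, 2000 variable genes). The clustering ignored division and other cell cycle genes, Irx3, Irx5, sex-linked, mitochondrial, ribosomal and haemoglobin genes, so no cell's class rests on its division genes. A cluster was called like a class when at least 3 and at least 40% of its markers were in 10% of cells and 2-fold over the median cluster. The cluster led by Cyp2f2 was left unnamed after its genes were seen. Scrublet doublets (17 cells) were kept. Precision is set by depth: with medians of 1274 and 1160.5 UMIs per cell most transcripts of a cell are missed. Intervals (scipy 1.17.1) are exact at 95%: Clopper-Pearson for shares, Poisson for levels and conditional binomial for ratios. Ratios use genes with at least 10 UMIs, and a 0 is read as a floor of 3 UMIs. The genes named were those with at least 10 UMIs, with the rest by count, and the 5 genes of each other list found in most cells with at least 3 division genes, plus Ccnd1, Ccnd2, Cdkn1a, Cdkn1b and Cdkn1c. With 1 library per genotype no test was run.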

Additional observations from a re-analysis of the deposited data

How the results depend on the processing

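The share of cells with at least 2 division genes, 4.53% and 4.18%, changed mostly where the definition changed: 5.62% and 5.53% of cells with 500 genes or more, 1.33% and 1.35% for at least 3 division genes, 0.873% and 0.741% for mitosis and 3.04% and 3.17% for replication genes only, 2.18% and 1.65% thinned to 1000 UMIs, and 5.64% and 4.63% without neurons. Precursors were 22.2% of these cells, 46.2% at a cutoff of 3 division genes, 53.1% for 2 mitosis genes and, at a cutoff of 5 chosen after seeing the data, 68.0%. The log2 ratio of summed division gene UMIs was -0.15, -0.40 without the cell with most division gene UMIs of each library, and reversed to 0.39 without neurons; that neurons make up more of the double heterozygote library is measured, the cause was not tested. The thinned neuron share of 0.301% was 0 at 500 UMIs, 0.602% in another draw and 2.999% unthinned, and the precursor share of 10.8% was 14.2% in that draw. The count of genes 2-fold higher, 2, was 1 with at least 30 UMIs, 4 at a 1.5-fold limit, 7 without neurons and 0 without the cell with most division gene UMIs, and the count lower, 4, was 2, 6, 2 and 7. Merging barcode families, added after seeing the data, moved none of these shares or summed ratios beyond its interval. The median log2 ratio of all genes was -0.09, and scaled by it the summed log2 ratio was -0.05 (-0.20 to 0.08), which includes 0, and the count lower was 3. No paired analysis was possible because each genotype has 1 library.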
